A study of Homo sapiens with 4 samples.

Results

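The genes described here are 33 genes of glycolysis and the hypoxia response, out of 20323 genes listed in the deposited table. They comprise the enzymes that turn glucose into lactate, the carriers that bring glucose in and lactate out, the kinases that set the rate of the pathway, and genes of oxygen sensing with targets of the hypoxia-inducible transcription factor HIF-1. The rule uses gene names and no measured value, but the members were chosen with earlier results of these data known. All 33 had a line in the table, and 31 passed the filter on low counts. The exceptions were ENO2, with 12 and 6 estimated counts in the NK scramble libraries and 9 in each NK shADAR1 library, and EGLN3, with 0 counts in all 4 libraries.

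Poly(A) RNA was sequenced from NK-92, a human natural killer lymphoma line that depends on interleukin 2 and was grown with 100 IU/ml of it. NK scramble cells carried a lentiviral pLKO.1 vector with a scrambled hairpin, and NK shADAR1 cells carried the same vector with a hairpin against ADAR1, the RNA-editing enzyme encoded by ADAR. There were 2 libraries in each group, numbered in the labels. The study asked how lowering ADAR1 alters gene expression in NK cells. According to the study's text, the sequenced knockdown cells carried the second of its hairpins, and the numbers in the labels were read as replicates. The time between infection and harvest, and the oxygen level of the cultures, were not given in the sources used here.

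The libraries held 37881704 to 39960491 estimated counts. In the values below, NK scramble libraries are also called controls and NK shADAR1 libraries knockdown libraries, and a pair of values gives replicate 1 and then replicate 2. Levels are CPM, the counts of a gene relative to the library's total after TMM scaling (trimmed mean of M-values), or the authors' FPKM, which is also relative to transcript length, where the levels of different genes are compared. All 10 NK-92 markers examined, including NCAM1, NKG7 and GZMB, were detected in every library, with summed levels of 4356 to 5014 CPM. The T cell list summed to 182 to 250 CPM, nearly all of it from TRAC and TRBC1, with CD8B at 0 in all 4 libraries. The myeloid and erythroid list summed to 72.7 to 110 CPM, nearly all of it from ITGAX, with HBB at 0. Correlations of log2 CPM between libraries were 0.981 within each group and 0.981 to 0.989 across groups. With 2 libraries in a group, p-values measure only the spread between these libraries, and an exact permutation test of a single value could not go below 0.333.

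Glycolysis splits glucose into pyruvate in the cytosol. Hexokinase traps glucose in the cell, phosphofructokinase makes the committed step, and pyruvate kinase closes the sequence. Lactate dehydrogenase then regenerates NAD+ so that the pathway can run on. When oxygen is short, prolyl hydroxylases of the EGLN family stop marking HIF-1 alpha for destruction, and the stabilised factor binds DNA at the core ACGTG or GCGTG and raises transcription of many enzymes of the pathway. Activated NK cells rely on glycolysis for cytokine production and killing, and interleukin 2 supports it.

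ADAR itself was measured at 655 and 682 CPM in the controls, and at 575 and 482 CPM in the knockdown libraries. Both knockdown libraries lay below both controls. The log2 fold change was -0.34 (standard error, SE, 0.20, 95% interval -0.79 to 0.11), and edgeR gave an adjusted p of 1.00 (quasi-likelihood test), so the lower level did not pass. The left-out-library values ran from -0.47 without NK shADAR1 replicate 1 to -0.22 without replicate 2. The study reported the knockdown of ADAR1 in these cells by qRT-PCR and western blot, measures not examined here.

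No member passed the test between NK shADAR1 and NK scramble cells. A call needed both an adjusted p under 0.05 and a change of at least 1.5-fold. With edgeR this held for 0 of 31 tested members and for 0 of 11810 tested genes, 0.0%, and DESeq2 called 0 genes as well. The study, using DESeq2 with the same thresholds, did report differentially expressed genes. What made the difference was not tested. At an unadjusted p under 0.05, edgeR gave 1 member, VEGFA, which is 3.23% of those tested, against 293 genes or 2.48% of all. DESeq2, which was run on 15605 genes, gave 1 member, SLC16A1, and 289 genes at the same unadjusted threshold. The median log2 fold change was -0.14 over the tested members, with 23 below 0 and 8 above, and 0.0 over all tested genes. Without NK shADAR1 replicate 1 the members' median was 0.18, and without replicate 2 it was -0.43, so its sign turned when a single library was left out.

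In 4 members, VEGFA, SLC16A1, ALDOC and BNIP3, both knockdown libraries lay below both control libraries. That was 12.9% of the tested members, against 12.6% of all tested genes. In 0 members did both knockdown libraries lie above both controls, against 13.3% of all genes.

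**Figure D1:**
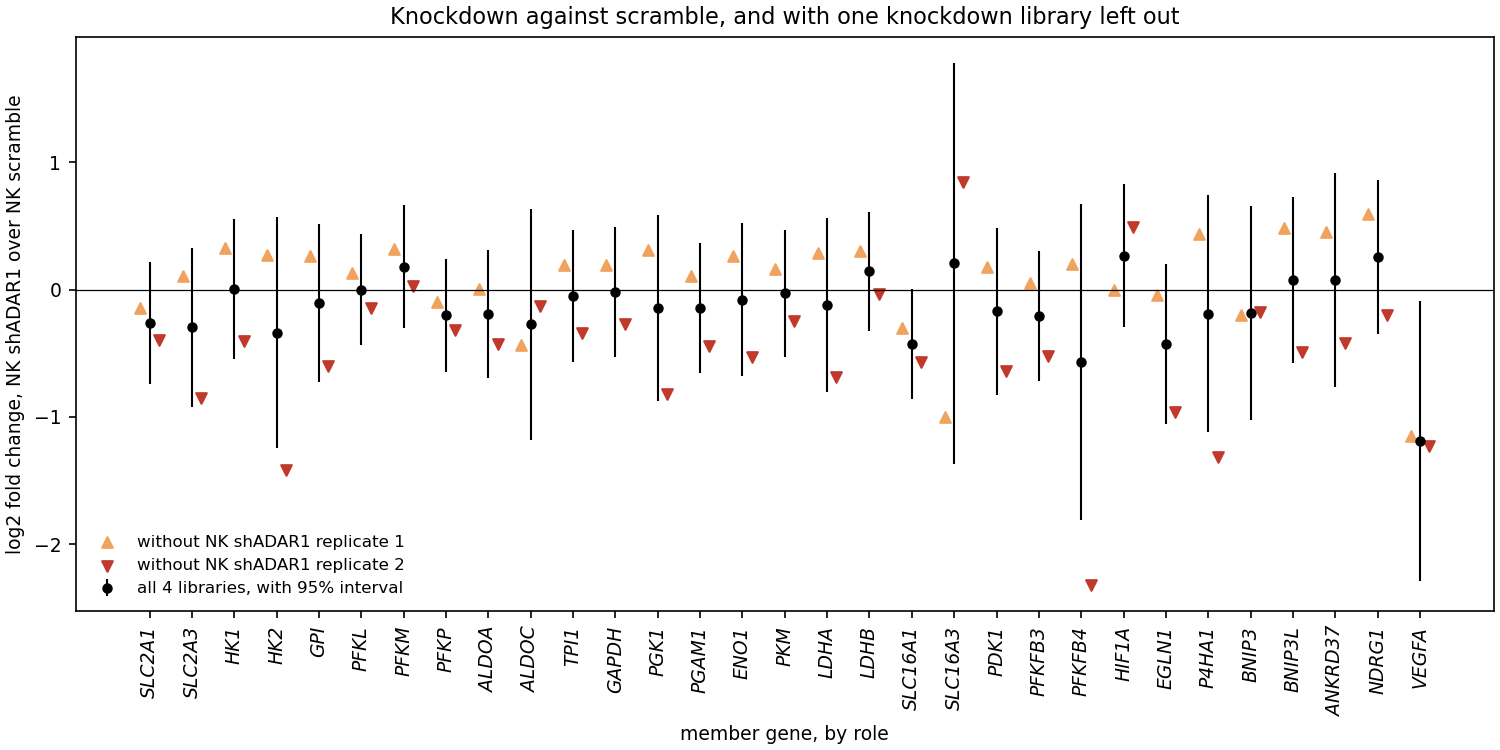
Log2 fold change of NK shADAR1 over NK scramble cells for the 31 tested members, in order of role, with the estimate from all 4 libraries and its 95% interval in black and the estimates without knockdown replicate 1 (orange) and without knockdown replicate 2 (red) beside it. The black points run from -1.19 for VEGFA to 0.27 for HIF1A, the interval of VEGFA is the only one that does not reach 0, and the estimate of PFKFB4 is 0.20 without replicate 1 and -2.32 without replicate 2.

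For most members the knockdown libraries stood on opposite sides of the controls. NK shADAR1 replicate 1 was the lowest of the 4 libraries for 25 of 31 tested members, 80.6%, against 29.1% of all tested genes. NK shADAR1 replicate 2 was the highest for 19 members, 61.3%, against 21.9%. Both were true of 17 members, 54.8%, against 10% of all genes. The 6 members that were not lowest in replicate 1 were PFKM, LDHB, ALDOC, SLC16A3, BNIP3 and HIF1A. This pattern was noticed in these data, and members are not independent of each other, so the counts are a description.

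**Figure D2:**
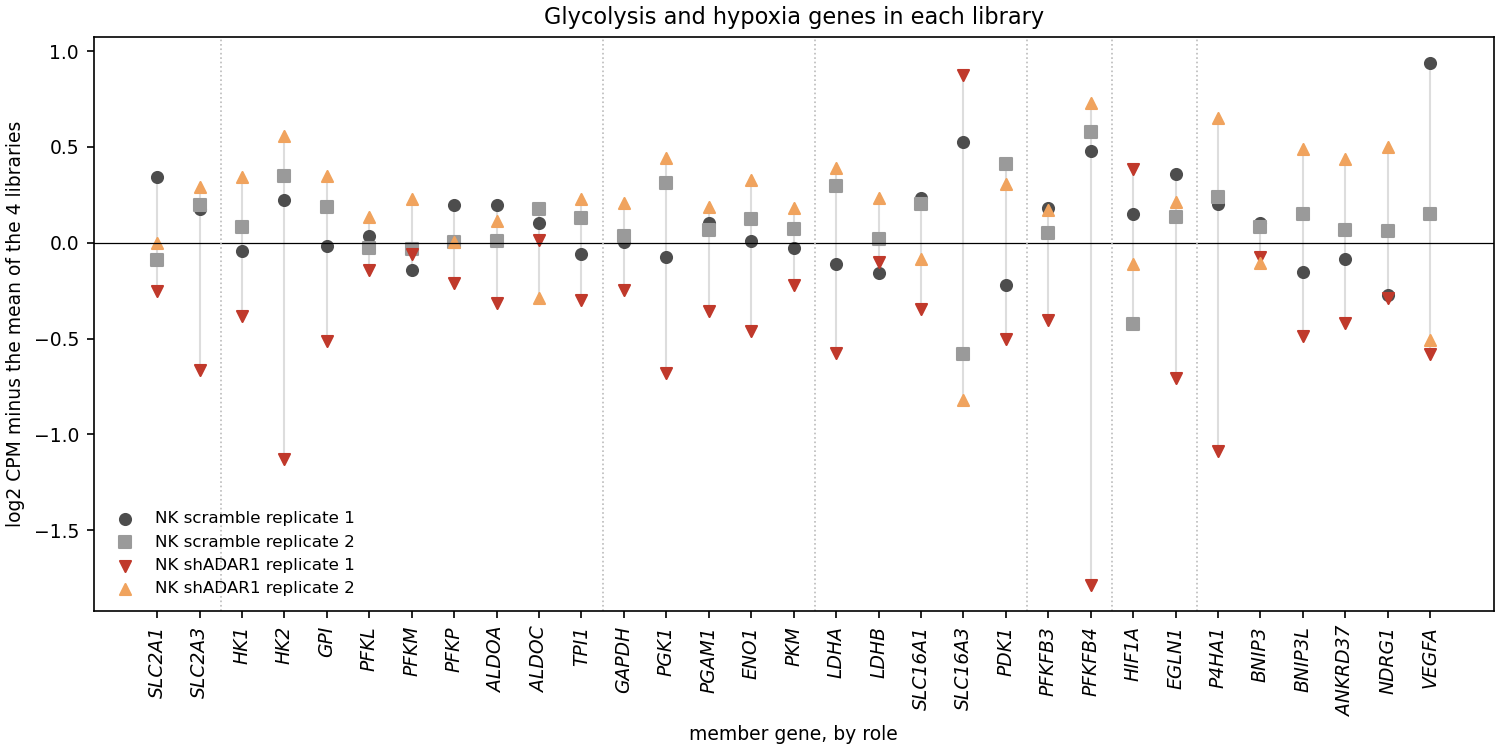
Log2 CPM (TMM-scaled) of each tested member in each of the 4 libraries, minus that gene's mean over the 4, with genes in order of role, dotted lines between roles and a grey line over each gene's range. NK shADAR1 replicate 1 is the lowest point for 25 of the 31 genes, and its distance below 0 is widest for PFKFB4, at -1.79.

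The gap was also wide. In NK shADAR1 replicate 2, 14 members, 45.2%, had at least 1.5 times their level in replicate 1, against 6.46% of all tested genes. The reverse held for 1 member, SLC16A3, against 10.8% of all genes. In NK scramble cells, 1 member, PDK1, was at least 1.5-fold higher in replicate 2 than in replicate 1, against 7.17% of all genes. SLC16A3 and VEGFA were at least 1.5-fold higher in NK scramble replicate 1 than in replicate 2, against 8.77% of all genes. The median log2 difference between replicates 2 and 1 was 0.54 over the members in NK shADAR1 cells, with 27 of 31 above 0, and 0.073 in NK scramble cells. Over all tested genes these medians were -0.0057 and 0.0024.

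**Figure D3:**
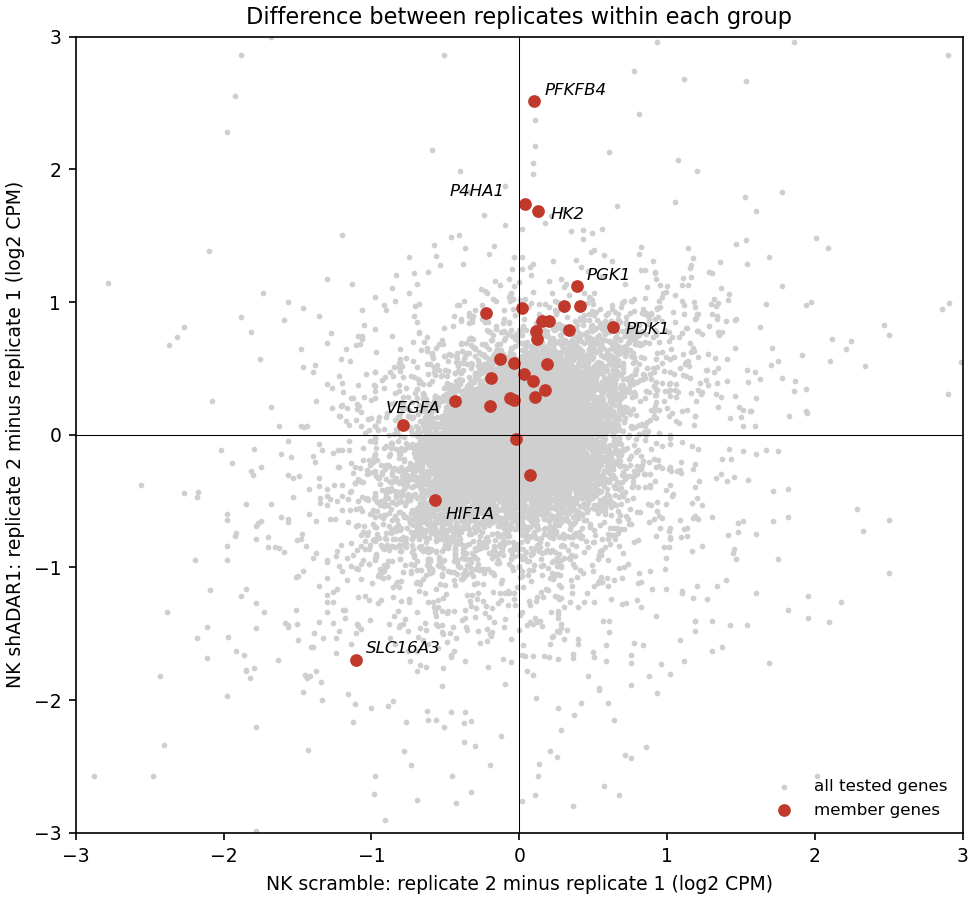
Log2 CPM of replicate 2 minus replicate 1 in NK scramble cells (horizontal axis) and in NK shADAR1 cells (vertical axis), 1 point a gene, for the 31 tested members (red) and all 11810 tested genes (grey), of which 52 lie outside the plotted range of 3 either way. Of the members, 27 lie above 0 on the vertical axis, with medians of 0.54 on the vertical and 0.073 on the horizontal axis.

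In total the 33 genes took 2.11% and 2.20% of all counts in the controls, 1.66% in NK shADAR1 replicate 1 and 2.41% in replicate 2. The knockdown libraries thus lay on either side of both controls. ADAR was lower in NK shADAR1 replicate 2 than in replicate 1, so the library with the lowest glycolytic RNA was not the one with the lowest ADAR. Markers of B cells summed to 24.6 and 22.04 CPM in the controls, 46.1 CPM in knockdown replicate 1 and 20.002 CPM in knockdown replicate 2. Nearly all of that sum was PAX5, with MS4A1 at 0 in all 4 libraries. The part of ADAR or PAX5 in the glycolytic pattern was not tested. The libraries are whole cultures, so fewer cells using the pathway and less RNA in each cell cannot be told apart.

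The HIF core motif was searched in RefSeq promoter windows of GRCh38.p14, each from 250 bases before to 50 bases after an annotated start. Windows were given for 28 of 33 members. ACGTG, on either strand, stood in 22 of 55 member windows, against 7518 of 35116 windows of all genes, 21.4%. Members were picked to include HIF-1 targets, so their share of this motif was not independent of that choice. GCGTG stood in 38.2% of member windows and 36.5% of all windows. The reverse complement of ACGTG is CACGT, and the palindrome CACGTG, also bound by other factors such as MYC, holds both. Of the 8 members with ACGTG and a level at least 1.5-fold higher in knockdown replicate 2 than in replicate 1, the stretches below are given for the 6 with a stretch of 30 bases around a match wholly before the start, which EGLN1 and PDK1 did not have. Each is in the direction of the gene, with 1 match in capitals. The stretches of HK2, LDHA and ANKRD37 hold CACGTG and so also match on the opposite strand. That of LDHA ends in a further CACGT, not marked.
HK2: tccggcgagagcACGTGgagagaatcgtgg
P4HA1: tgtgatcgagctCACGTagcgagggctgca
PGK1: gcggcgtgccggACGTGacaaacggaagcc
LDHA: agcccgactcacACGTGggttcccgcacgt
GPI: acactgcctgtaACGTGgaaggtgttcgat
ANKRD37: gcgccgggctccACGTGccagtgtttgtgt

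These lie upstream of an annotated start, at chr2:74835010-74835039 for HK2, chr10:73096935-73096964 on the minus strand for P4HA1, chrX:78104034-78104063 for PGK1, chr11:18394465-18394494 for LDHA, chr19:34364818-34364847 for GPI and chr4:185396668-185396697 for ANKRD37. The match in capitals ended 144 bases before the start in HK2, 82 in P4HA1, 198 in PGK1, 82 in LDHA, 158 in GPI and 157 in ANKRD37. A match is a run of letters and no measure of binding. The 17 tested members with ACGTG in a window had a median log2 difference of 0.57 between knockdown replicates 2 and 1, and the 9 with windows but without it had 0.40. Replicate 2 was at least 1.5-fold above replicate 1 in 8 of the 17 and in 3 of the 9, against 6.46% of all tested genes. The differences overlapped, from -1.69 to 1.74 with the motif and from -0.49 to 2.52 without it. PFKFB4, which had the widest gap, was among the 9 without it. All genes were not divided by the motif, and a link between motif and gap was not tested.

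Glucose enters through the facilitative transporters SLC2A1 (GLUT1) and SLC2A3 (GLUT3). SLC2A3, the high-affinity form, was at 263 and 266 CPM in the controls, 147 CPM in knockdown replicate 1 and 284 CPM in knockdown replicate 2. The knockdown libraries lay on either side of closely matched controls, and the log2 fold change was -0.30 (SE 0.28). SLC2A1 had 214 and 158 CPM in the controls and 141 and 168 CPM in the knockdown libraries, with a log2 fold change of -0.26 (SE 0.22). Its groups overlapped. Per length the pair was nearly even, with mean levels over 4 libraries of 70.1 FPKM for SLC2A1 and 62.3 FPKM for SLC2A3.

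The upper steps spend ATP to prime the sugar. HK2, the inducible hexokinase, had 175 and 191 CPM in the controls, 68.5 CPM in knockdown replicate 1 and 221 CPM in knockdown replicate 2. Its level in replicate 2 was 3.22 times that in replicate 1. The group means were 183 ± 11.1 and 145 ± 108 CPM (SD, n = 2 each), and the log2 fold change of -0.34 had a 95% interval from -1.24 to 0.57. HK1, the constitutive hexokinase, had 231 and 251 CPM in the controls and 183 and 301 CPM in the knockdown libraries, a gap of 1.65-fold between the knockdown libraries. The log2 fold change of HK1 was 0.0057 (SE 0.25), and it turned negative under several settings given in the closing section.

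GPI, which converts glucose 6-phosphate to fructose 6-phosphate, had 1365 and 1571 CPM in the controls, 970 CPM in knockdown replicate 1 and 1759 CPM in knockdown replicate 2. The controls sat between the knockdown libraries. Among the phosphofructokinases, the platelet form PFKP led with a mean of 124 FPKM, ahead of the liver form PFKL with 59.1 FPKM and the muscle form PFKM with 7.80 FPKM. PFKP, PFKL and PFKM had log2 fold changes of -0.20 (SE 0.20), -2.9e-05 (SE 0.20) and 0.18 (SE 0.22). The FPKM of PFKM separated the groups, with 6.39 and 6.87 FPKM in the controls and 8.72 and 9.24 FPKM in the knockdown libraries. Its CPM overlapped between groups, at 15.3 and 16.4 against 16.2 and 19.7.

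ALDOA, the main aldolase, had 1828 and 1600 CPM in the controls and 1278 and 1719 CPM in the knockdown libraries. ALDOC, the brain form, was nearly silent at 1.55 to 2.16 CPM. TPI1, which interconverts the triose phosphates, had 773 and 881 CPM in the controls and 653 and 944 CPM in the knockdown libraries. Over the 9 upper enzymes the median log2 fold change was -0.11, with 7 below 0 and 2 above, and 7 of 9 were lowest in NK shADAR1 replicate 1.

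The lower steps earn ATP and NADH. Its 5 tested enzymes, GAPDH, PGK1, PGAM1, ENO1 and PKM, were all lowest in NK shADAR1 replicate 1 and all highest in replicate 2. GAPDH, often used as a reference gene, had 3925 and 4007 CPM in the controls, 3293 CPM in knockdown replicate 1 and 4518 CPM in knockdown replicate 2. Its log2 fold change was -0.022 with a 95% interval from -0.53 to 0.49. PGK1, the first ATP-forming step, had the widest gap of the group, with 1071 and 1401 CPM in the controls against 703 and 1531 CPM, or 2.18-fold between the knockdown libraries. PGK1 was 1236 ± 233 CPM in NK scramble and 1117 ± 586 CPM in NK shADAR1 cells (SD, n = 2 each), so the spread within each group exceeded the difference between them.

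ENO1, which makes phosphoenolpyruvate, had 4438 and 4805 CPM in the controls and 3209 and 5532 CPM in the knockdown libraries. Its level differed 1.72-fold between the knockdown libraries. PGAM1, the mutase before it, had 706 and 687 CPM against 513 and 748 CPM. PKM, pyruvate kinase, had 2734 and 2922 CPM against 2388 and 3156 CPM. The log2 fold changes of the 5 enzymes lay between -0.15 and -0.022. Enolase RNA was almost wholly ENO1, since ENO2, the neuronal form, averaged 0.173 FPKM against 2561 FPKM. GAPDH, with a mean of 3055 FPKM, and ENO1 ranked 13 and 23 among all genes listed, PKM 71, ALDOA 85 and LDHA 99. GAPDH, PGK1, ENO1, LDHA and other glycolytic genes have processed pseudogenes of near-identical sequence, and how reads were divided among such copies was not given in the sources used here.

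Lactate dehydrogenase is a tetramer of LDHA and LDHB subunits, of which LDHA favours lactate production. LDHA had 1538 and 2042 CPM in the controls, 1114 CPM in knockdown replicate 1 and 2179 CPM in knockdown replicate 2. The knockdown libraries differed 1.96-fold, and the log2 fold change was -0.12 (SE 0.31). LDHB, the heart form, had 444 and 501 CPM in the controls and 461 and 582 CPM in the knockdown libraries. The share of LDHA in the FPKM sum of both genes was 70.7% and 74.7% in the controls, 66.2% in NK shADAR1 replicate 1 and 74.1% in replicate 2.

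**Figure D4:**
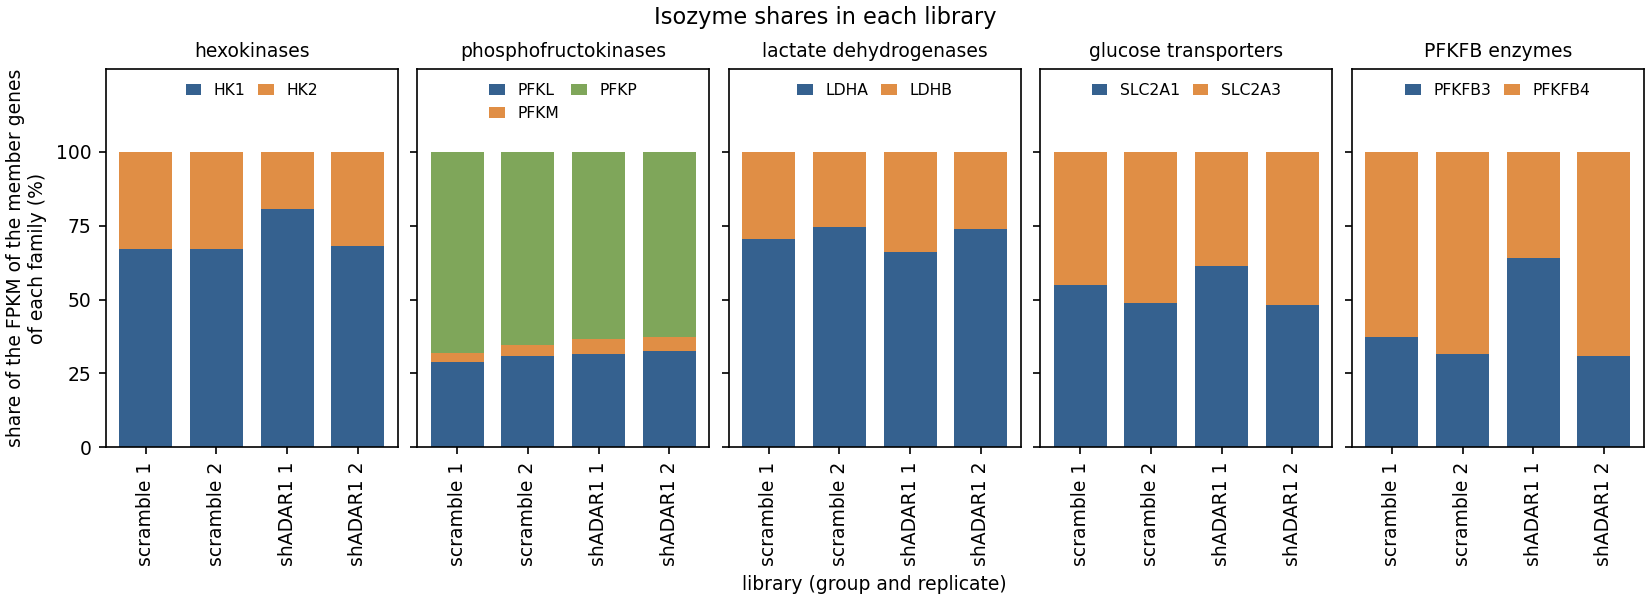
Share of each member gene in the FPKM sum of the members of its family, in percent, as stacked bars, 1 bar a library. HK2 is at 19.4% and PFKFB4 at 35.8% in NK shADAR1 replicate 1, against 32.0% to 32.7% and 62.5% to 68.9% in the other libraries.

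Lactate leaves through monocarboxylate transporters. SLC16A1 (MCT1) had 167 and 163 CPM in the controls and 112 and 134 CPM in the knockdown libraries. The groups did not overlap, and the means were 165 ± 2.83 and 123 ± 15.6 CPM (SD, n = 2 each). The log2 fold change was -0.43 (SE 0.20, 95% interval -0.86 to 0.0054), and with edgeR's unadjusted p of 0.0524 and adjusted p of 1.00 it did not pass the test. It stayed between -0.57 and -0.30 when any 1 library was left out. SLC16A3 (MCT4), the exporter typical of highly glycolytic cells and a HIF-1 target, was nearly absent, with 33 and 14 counts in the controls and 42 and 11 counts in the knockdown libraries. MCT1 thus made up 99.0% to 99.8% of the FPKM of the pair.

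PDK1 phosphorylates pyruvate dehydrogenase and so keeps pyruvate from the mitochondria. It had 30.6 and 47.5 CPM in the controls and 25.2 and 44.2 CPM in the knockdown libraries. Replicate 2 was the higher library in both groups, and the log2 fold change was -0.17 (SE 0.30).

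The bifunctional enzymes PFKFB3 and PFKFB4 set the level of fructose 2,6-bisphosphate, the strongest activator of phosphofructokinase. PFKFB4 showed the widest gap of any tested member, with 86.2 and 92.4 CPM in the controls, 17.9 CPM in knockdown replicate 1 and 102 CPM in knockdown replicate 2. The knockdown libraries differed 5.73-fold, and the controls differed by 0.099 on the log2 scale. Its log2 fold change was -0.57 with a 95% interval from -1.81 to 0.67. Without NK shADAR1 replicate 2, which leaves replicate 1 as the lone knockdown library, it was -2.32. Without NK shADAR1 replicate 1 it was 0.20. PFKFB3 had 52.4 and 47.9 CPM in the controls and 34.98 and 52.0 CPM in the knockdown libraries, a much smaller gap. PFKFB4 made up 62.5% and 68.4% of the pair's FPKM in the controls and 35.8% and 68.9% in the knockdown libraries.

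The oxygen-sensing genes did not share a direction. HIF1A, which encodes HIF-1 alpha and is controlled mainly at the protein level, had 83.7 and 56.3 CPM in the controls and 98.4 and 70.0 CPM in the knockdown libraries. It was highest in the library where most glycolytic genes were lowest, and its log2 fold change was 0.27 (SE 0.25). Antisense genes overlap HIF1A, and the use of strand in counting was not given in the sources used here. EGLN1 (PHD2), the main HIF prolyl hydroxylase and itself a HIF target, had 90.002 and 77.0 CPM in the controls, 42.9 CPM in knockdown replicate 1 and 81.1 CPM in knockdown replicate 2. EGLN1 had a log2 fold change of -0.43 (SE 0.28), and of -0.040 without NK shADAR1 replicate 1. EGLN3 (PHD3), strongly induced by hypoxia in many cell types, had no counts in any library. The limit that 3 counts set was 0.0751 to 0.0792 CPM before TMM scaling, covering counting error only.

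Outside the glycolytic enzymes, the hypoxia targets were of low to moderate level. P4HA1, a collagen prolyl hydroxylase, had 44.0 and 45.1 CPM in the controls, 18.0 CPM in knockdown replicate 1 and 60.2 CPM in knockdown replicate 2. The knockdown libraries differed 3.35-fold, and the controls by 0.037 on the log2 scale. BNIP3L (NIX), a mitophagy receptor, had 41.4 and 51.0 CPM against 32.8 and 64.4 CPM. NDRG1, a stress-response gene, had 21.7 and 27.4 CPM against 21.5 and 37.2 CPM. ANKRD37, a small ankyrin-repeat gene and direct HIF-1 target, had 3.38 and 3.77 CPM against 2.67 and 4.87 CPM. All 3 were highest in NK shADAR1 replicate 2 and lowest in replicate 1, with log2 fold changes of 0.075 (SE 0.29), 0.25 (SE 0.27) and 0.077 (SE 0.38).

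BNIP3, the other mitophagy receptor, behaved differently. It had 2.48 and 2.44 CPM in the controls and 2.19 and 2.14 CPM in the knockdown libraries, so that the knockdown libraries lay close together and below the controls. Its log2 fold change of -0.19 had an SE of 0.38 at this low level.

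VEGFA, the angiogenic growth factor, had the largest fold change of the tested members in the count fit. It had 91 and 51 estimated counts in the controls and 30 in each NK shADAR1 library, or 2.28 and 1.30 CPM against 0.763 and 0.803 CPM. The groups did not overlap, and the controls differed more than the knockdown libraries did. The log2 fold change was -1.19 (SE 0.50, 95% interval -2.29 to -0.088), with an unadjusted p of 0.0369 and an adjusted p of 1.00 from edgeR. It was -0.73 without NK scramble replicate 1, and the mean level over the 4 libraries was 0.631 FPKM. On the log2(FPKM + 1) and log2(FPKM + 0.1) scales VEGFA had -0.34 and -0.78, against -0.91 and -0.98 for PFKFB4, which was then the larger.

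The related pathways were examined through 5 further lists. With edgeR, 0 of their 21, 20, 11, 17 and 27 tested genes were called, in the order other glycolysis enzymes and sugar entry, pyruvate fate, pentose phosphate pathway, oxygen sensing and HIF regulation, and other hypoxia response genes. At an unadjusted p under 0.05 there was 1 gene, GPT2. Median log2 fold changes of the lists were -0.19, -0.033, -0.055, 0.010 and -0.12 in that order. NK shADAR1 replicate 1 was the lowest library for 10, 10, 6, 8 and 17 of their genes. The shares were 47.6%, 50.0%, 54.5%, 47.1% and 63.0%, all above the 29.1% of all genes. Among them the hypoxia response list stood highest, at 63.0%, and 9 of its 27 genes, 33.3%, were at least 1.5-fold higher in NK shADAR1 replicate 2 than in replicate 1, against 6.46% of all genes. In the pyruvate list 0 of 20 genes showed such a gap. NK shADAR1 replicate 2 was the highest library for 14.3%, 45.0%, 18.2%, 29.4% and 29.6% of the lists' genes, in the same order. The share of all genes was 21.9%, so the other glycolysis and pentose phosphate lists lay below it. Median log2 differences between knockdown replicates 2 and 1 were 0.024, 0.30, 0.11, 0.26 and 0.32 in that order, against 0.54 over the members.

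Among other glycolysis and sugar entry genes, 2 were named for their high level. BSG (basigin), the chaperone that brings MCT1 to the membrane, had 435 and 300.1 CPM in the controls and 342 and 290.0 CPM in the knockdown libraries. TXNIP, which lowers glucose uptake and is induced by glucose, had 169 and 206 CPM against 87.8 and 198 CPM, so the knockdown libraries differed 2.26-fold in the direction seen for most enzymes. BSG was instead lowest in knockdown replicate 2.

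Of the genes that carry pyruvate onward, MDH2 and MDH1, the malate dehydrogenases of mitochondrion and cytosol, had log2 fold changes of -0.13 (SE 0.21) and -0.020 (SE 0.20). GPT2, the mitochondrial alanine transaminase, had 72.0 and 38.3 CPM in the controls and 26.5 and 35.8 CPM in the knockdown libraries. Its log2 fold change was -0.83 (SE 0.29), with an unadjusted p of 0.0182 and an adjusted p of 1.00 from edgeR, and it was -0.30 without NK scramble replicate 1. In the pentose phosphate pathway, which makes NADPH and ribose, TKT, transketolase, had 490 and 408 CPM in the controls and 410 and 443 CPM in the knockdown libraries. The knockdown libraries lay within 1.08-fold of each other.

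Of the regulators of HIF-1 alpha stability, RACK1 had 2486 and 2675 CPM in the controls and 2201 and 2904 CPM in the knockdown libraries. HSP90AB1, the chaperone that protects the factor, had 2778 and 3431 CPM against 2455 and 3341 CPM. Both were lowest in NK shADAR1 replicate 1, with log2 fold changes of -0.015 (SE 0.22) and -0.099 (SE 0.24). Among other hypoxia response genes, DDIT4 (REDD1), an inhibitor of mTORC1, had 553 and 348 CPM against 276 and 430 CPM. BHLHE40, a transcriptional repressor, had 447 and 482 CPM against 352 and 445 CPM, with both knockdown libraries below both controls and a log2 fold change of -0.22 (SE 0.21). HILPDA, a lipid droplet protein named after its values were seen, came closest to PFKFB4, with 22.7 and 39.9 CPM against 7.02 and 37.6 CPM, a gap of 5.37-fold between the knockdown libraries.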

How the data were processed

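Poly(A) RNA-seq libraries of NK-92 cells, 2 NK scramble and 2 NK shADAR1, were analysed. The authors deposited 1 table of estimated counts and FPKM per gene. Reads were filtered with fastp 0.18.0 per the submitters' processing notes. The aligner, counting program and genome build were not given in the sources used here. Of 20323 Ensembl identifiers, 20301 matched a symbol.

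Estimated counts, 87.1% to 87.9% of them whole as deposited, were rounded and tested with edgeR 4.0.16 (R 4.3.3) by the quasi-likelihood test. The settings were filterByExpr with a minimum count of 10, TMM scaling, no covariates and Benjamini-Hochberg adjustment over 11810 genes. Standard errors were the absolute log2 fold change divided by the square root of F. Alternatives used DESeq2 1.42.0, limma 3.58.1 on log2(FPKM + 1 or 0.1), other scaling and filters, a replicate block, and leaving out each library. Scripts were tested on simulated counts.

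The members and lists were chosen with earlier results of these data known. All members were named. From each pathway list, genes were named from among the 2 with the highest mean FPKM and any with an unadjusted p under 0.05. HILPDA was added after its values were seen. Some genes that the lists hold are not reported here. Of the hypoxia response list, 39 of 40 genes had a line in the table. Promoter windows came from RefSeq, GRCh38.p14, and 28 of 33 members matched. Intervals and floors cover 95% and 3 counts.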

Additional observations from a re-analysis of the deposited data

How the results depend on the processing

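With 2 libraries in a group, precision was limited by the spread between libraries (biological coefficient of variation 0.201) and, for members with few counts, also by depth. No member was called under DESeq2, other scaling, other filters or FPKM. With an unadjusted p in place of the adjusted one and the same fold change, 1 of 31 members and 213 of 11810 genes passed in edgeR. Over the fits without 1 library, 0 to 1 members and 1 to 47 genes were called, the member being PFKFB4 without NK shADAR1 replicate 2. These fits tested 12040 to 12165 genes, and in them 1 group has a lone library, which is assumed to vary like the other group. The members' median log2 fold change ranged from -0.43 to 0.18. NK shADAR1 replicate 1 was lowest for 25 members under RLE and upper quartile scaling and for 24 in FPKM, settings chosen after seeing the data.

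Same-numbered libraries deviated together with a correlation of 0.308, but the labels do not say that the numbers pair them. With the number as a replicate block, 13 genes and 0 members were called, and 5 of 31 members had an unadjusted p under 0.05, against 681 of 11810 genes. The sign of HK1 turned with the block (-0.037) and in FPKM (-0.028 and -0.029). PFKL turned with upper quartile scaling (0.011), a mean of at least 50 counts (0.0079) and FPKM (0.0018 for both pseudocounts). The oxygen sensing and HIF regulation list turned with the block (-0.00059). The cause was not tested.

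Leaving out 1 library reversed 32 fold changes in 22 members and kept the others' direction. The ranges over these fits were -0.85 to 0.10 for SLC2A3, -0.40 to 0.32 for HK1, -1.42 to 0.27 for HK2, -0.60 to 0.26 for GPI, -0.15 to 0.13 for PFKL, -0.43 to 0.0058 for ALDOA, -0.34 to 0.19 for TPI1 and -0.27 to 0.19 for GAPDH. Further ranges were -0.82 to 0.31 for PGK1, -0.44 to 0.10 for PGAM1, -0.53 to 0.26 for ENO1, -0.25 to 0.16 for PKM, -0.69 to 0.28 for LDHA, -0.037 to 0.30 for LDHB, -0.997 to 0.93 for SLC16A3 and -0.64 to 0.18 for PDK1. The remaining ranges were -0.52 to 0.053 for PFKFB3, -2.32 to 0.20 for PFKFB4, -1.31 to 0.43 for P4HA1, -0.49 to 0.48 for BNIP3L, -0.42 to 0.45 for ANKRD37 and -0.20 to 0.60 for NDRG1. Medians of the pathway lists ranged from -0.16 to 0.091 for pyruvate fate and mitochondrial entry, -0.16 to 0.0072 for pentose phosphate pathway, -0.14 to 0.11 for oxygen sensing and HIF regulation and -0.22 to 0.13 for other hypoxia response genes.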
